A study of Mus musculus with 16 samples.

Results

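Olig1, Olig2, Sox10, Pdgfra, Cspg4, Gpr17 and Nkx2-2 are 7 genes of the oligodendrocyte precursor, and they are described here in cortex of mice with and without an extra copy of a segment of chromosome 16. They were taken by symbol from the 55385 genes of the count table, and all 7 were among the 17019 genes that passed the filter on low counts. Olig1 and Olig2 lie in the segment and are present in 3 copies in duplication carriers, while the other 5 lie on other chromosomes and keep 2 copies. Polyadenylated RNA of brain cortex was sequenced in 16 animals, all 5 months old, with 4 of each of 4 genotypes.

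The wild-type animals were C57BL/6J mice, and the labels name no strain for the other groups. Dp16 is a model of trisomy 21 in which the mouse chromosome 16 segment related to human chromosome 21 is duplicated. In the 5xFAD model of amyloid disease, human transgenes are expressed in neurons under the Thy1 promoter, and the genotype labelled 5xFAD-Dp16 combines the models. Wild-type, Dp16 and 5xFAD groups had 2 males and 2 females each, and the 4 animals labelled 5xFAD-Dp16 were all male. The labels name no litters, so p-values measure the spread between these samples.

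Oligodendrocyte precursors are the dividing glial cells of the adult cortex that give rise to myelinating oligodendrocytes. Their identity rests on a small network of transcription factors, in which OLIG2 is needed for the lineage to form, OLIG1 and SOX10 act from the precursor to the myelinating cell, and NKX2-2 is active around the onset of differentiation. At the cell surface, PDGFRA receives the growth factor signal that keeps precursors dividing, the proteoglycan encoded by Cspg4 (NG2) marks them, and the receptor GPR17 marks cells that have left division and are about to differentiate. Olig1, Olig2 and Sox10 are also expressed in mature oligodendrocytes, Pdgfra in fibroblasts of the meninges and Cspg4 in pericytes.

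In the GRCm38 genome, Olig2 lies at chr16:91225457-91228677 and Olig1 at chr16:91269772-91271933, both on the plus strand and 41.1 kb apart. The duplicated segment was taken from the first base of Lipi to the last base of Zbtb21, chr16:75540514-97962622, a length of 22.4 Mb that holds 384 genes of the table. Sox10 lies at chr15:79154908-79165240 on the minus strand, Pdgfra at chr5:75152292-75198215 and Cspg4 at chr9:56865033-56899870 on the plus strand, and Nkx2-2 at chr2:147177546-147194243 on the minus strand. Each of the 7 is annotated as protein-coding. OLIG1 and OLIG2 are basic helix-loop-helix proteins, which bind the E-box, CANNTG.

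Across libraries 6 of the 7 members, all but Nkx2-2, varied together, and the sequence just upstream of the RefSeq start was read for the members with an entry, which are Olig2, Pdgfra, Cspg4 and Nkx2-2. The stretches below (RefSeq, GRCm38.p6, plus strand, 5′ to 3′) end before the first annotated start of the gene's own transcripts: 157 bases at chr16:91225300-91225456, 250 bases at chr5:75152001-75152250 and 179 bases at chr9:56864854-56865032. Capitals mark an E-box.
Olig2: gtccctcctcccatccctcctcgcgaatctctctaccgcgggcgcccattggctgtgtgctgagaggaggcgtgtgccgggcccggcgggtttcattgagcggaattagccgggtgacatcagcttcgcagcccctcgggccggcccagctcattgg
Pdgfra: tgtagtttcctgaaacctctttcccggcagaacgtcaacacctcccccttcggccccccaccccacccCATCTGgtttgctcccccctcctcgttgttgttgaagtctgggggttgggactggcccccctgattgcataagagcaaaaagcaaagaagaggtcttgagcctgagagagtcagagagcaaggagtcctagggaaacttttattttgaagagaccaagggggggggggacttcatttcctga
Cspg4: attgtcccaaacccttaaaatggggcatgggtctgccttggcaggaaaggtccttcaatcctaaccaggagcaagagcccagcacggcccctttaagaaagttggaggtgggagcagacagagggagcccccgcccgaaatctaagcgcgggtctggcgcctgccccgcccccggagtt
The Pdgfra stretch held 1 E-box, CATCTG, and the Olig2 and Cspg4 stretches held 0. Both strands were searched, which for CANNTG is the same search. Over the full 250 upstream bases, Nkx2-2 had 3 such matches, and 66.2% of 32851 RefSeq promoters had at least 1. The 250 bases upstream of Olig2 were 66.8% G and C, those of Cspg4 60.4%, those of Nkx2-2 56.4% and those of Pdgfra 54.4%, against a median of 52.4% over all promoters. A match is a string of letters and not a site.

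Library totals ran from 12483286 to 20385010 counted reads. Thy1 read 886 ± 41.5 CPM (reads scaled to the size of the library, mean ± SD, n = 4) in wild-type mice, 863 ± 48.5 in Dp16, 1640.0 ± 200.2 in 5xFAD and 1647 ± 138 in 5xFAD-Dp16, so the genotypes labelled as transgenic were the higher ones. App, a gene of the duplicated segment, stood higher with the duplication averaged over both backgrounds by 0.78 on the log2 scale (SE 0.13, edgeR adjusted p = 0.0249). Libraries of the same genotype differed by trends over all genes: in some, long genes or genes of high GC content read higher than in others. Across genes, the Spearman correlation of gene length with the deviation of a library was lowest at -0.46 in 5xFAD replicate 3 and highest at 0.45 in 5xFAD-Dp16 replicate 1. Genotypes differed too: the mean length correlation was 0.28 in 5xFAD-Dp16, -0.10 in 5xFAD, -0.08 in wild-type and -0.06 in Dp16. The same correlation with GC content averaged -0.18 in 5xFAD, 0.08 in wild-type and in Dp16, and 0.07 in 5xFAD-Dp16. In comparisons with 5xFAD or 5xFAD-Dp16, genotype and trend thus cannot be fully told apart. These trends touch the members, and their values are given beside the results.

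On the deposited RPKM scale, which corrects for gene length, Olig1 was the most abundant member, with a mean of 41.8 RPKM over the 16 libraries, and led in every library. Olig2 followed at 10.1 RPKM and Sox10 at 8.65 RPKM. Gpr17 averaged 2.98, Nkx2-2 2.50 and Pdgfra 2.11 RPKM, and Cspg4 was lowest in every library, with a mean of 0.547 RPKM. Olig2 stood above Sox10 in all 4 libraries of each genotype other than wild-type, where it did so in 2 of 4, and their ranges overlapped in every genotype. Gpr17, Nkx2-2 and Pdgfra changed places from library to library, so their order is not separated from their spread. Olig3, the third gene of the family, which is known from the spinal cord and hindbrain, gave between 0 and 4 reads in a library and did not pass the filter.

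Olig1, the more abundant of the 3-copy pair, read 75.9, 66.5, 84.8 and 113 CPM in wild-type replicates 1 to 4 and 138, 102, 123 and 84.7 CPM in the Dp16 replicates. It read 85.1, 69.6, 39.5 and 47.8 CPM in 5xFAD and 131, 82.3, 102 and 92.5 CPM in 5xFAD-Dp16. The Dp16 range reached above the wild-type range but overlapped it, and the 5xFAD-Dp16 libraries lay above all but 1 of the 5xFAD libraries. The means were 85.1 ± 20 CPM (SD, n = 4) in wild-type, 112 ± 24 in Dp16, 60.5 ± 21 in 5xFAD and 102 ± 21 in 5xFAD-Dp16.

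Olig2, its neighbour in the segment, read 26.4, 25.02, 19.7 and 33.3 CPM in wild-type and 37.2, 21.7, 27.4 and 21.0 CPM in Dp16. It read 27.1, 23.1, 10.9 and 12.5 CPM in 5xFAD and 45.6, 22.8, 26.7 and 24.1 CPM in 5xFAD-Dp16. Wild-type and Dp16 covered nearly the same range, and 1 library, 5xFAD-Dp16 replicate 1, stood above the other 15. Means were 26.1 ± 5.6 CPM (SD, n = 4) in wild-type, 26.8 ± 7.5 in Dp16, 18.4 ± 7.9 in 5xFAD and 29.8 ± 11 in 5xFAD-Dp16.

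**Figure D1:**
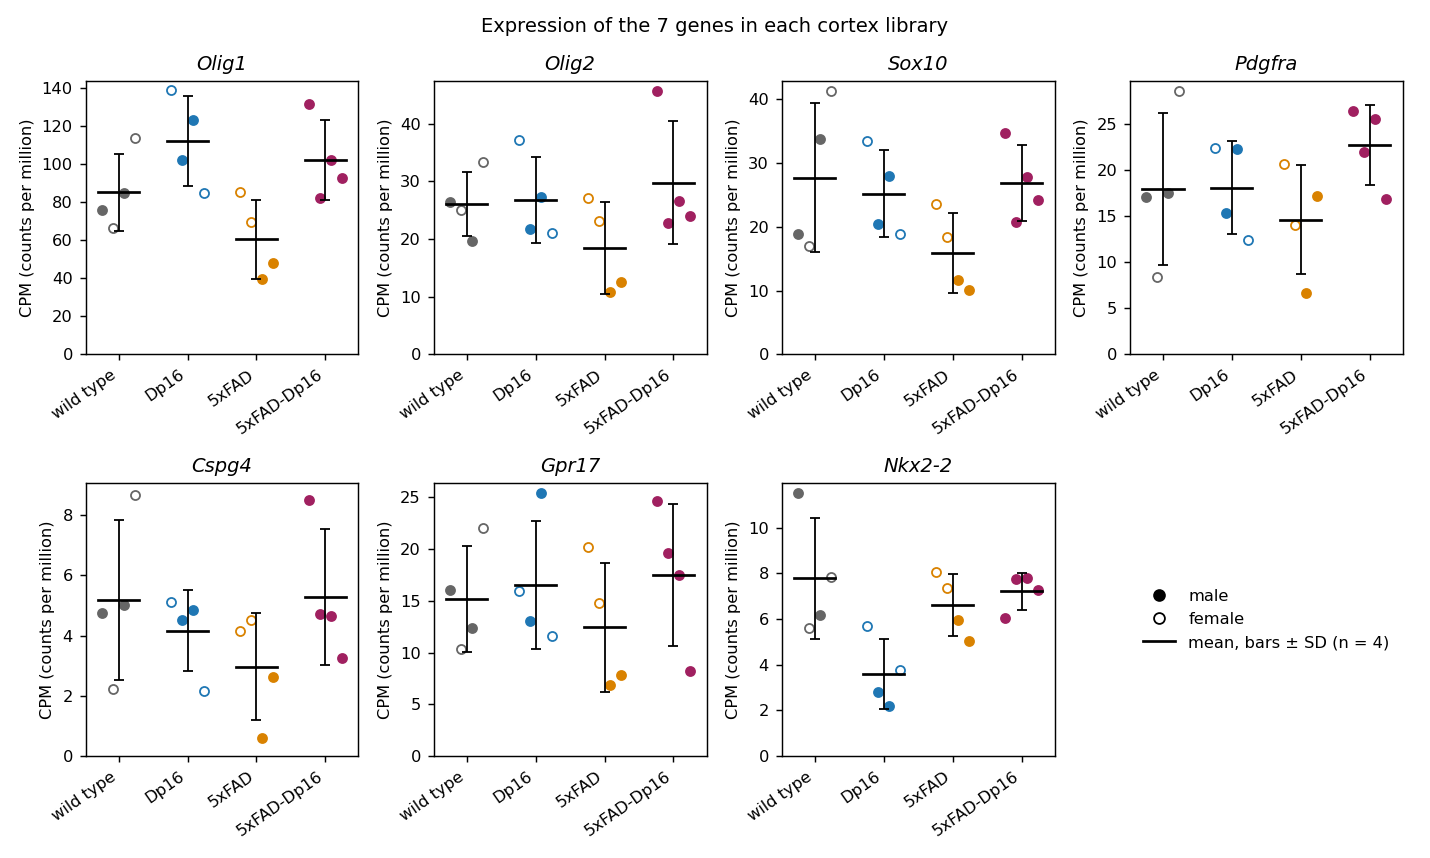
CPM of each of the 7 genes (vertical axis, linear from 0) in the 16 libraries, grouped by genotype, with filled points for males, open points for females, and the mean ± SD of 4 animals. The male 5xFAD libraries (the right-hand pair of that group) are the lowest of all 16 for Olig1 and Olig2, and Nkx2-2 alone is lowest in Dp16.

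Without the transgenes, Dp16 stood above wild-type by 0.40 for Olig1 on the log2 scale (SE 0.22, 95% interval -0.05 to 0.86), which is 1.32-fold. For Olig2 the difference was 0.05 (SE 0.25, interval -0.48 to 0.57), or 1.03-fold. An extra copy expressed like each of the others would give 1.5-fold, or 0.58 on this scale: the Olig1 interval holds that value and also 0, and the Olig2 interval holds 0 and ends just below it. Without wild-type replicate 2, Olig1 stood at 0.26. Of the 7, 4 stood above 0, where 50.4% of all genes did. None passed edgeR's quasi-likelihood test at an adjusted p of 0.05, and 0.0176% of all genes did. At an unadjusted p under 0.05 there was 1 member, Nkx2-2, against 3.88% of all genes, and DESeq2 called 1, the same gene (log2 difference -1.19, adjusted p = 0.0407). Over all genes DESeq2 called 38 higher and 19 lower of 28057.

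Among the 2-copy members in the same comparison, Sox10 stood at -0.14 (SE 0.29), Pdgfra at 0.01 (SE 0.34), Cspg4 at -0.30 (SE 0.48) and Gpr17 at 0.15 (SE 0.37). All 4 intervals held 0. The median of the 7 members was 0.01, against 0.00 over all genes tested. In this bulk tissue, fewer cells of a type and less RNA per cell cannot be told apart.

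Nkx2-2 went the other way. It read 11.5, 5.6, 6.2 and 7.8 CPM in wild-type and 5.7, 2.8, 2.2 and 3.8 CPM in Dp16, so that the groups touched only through the highest Dp16 and lowest wild-type library. The 5xFAD libraries read 8.0, 7.4, 5.9 and 5.1 CPM and those of 5xFAD-Dp16 6.0, 7.8, 7.8 and 7.3 CPM. The Dp16 mean was thus the lowest of the 4 genotypes, though the highest Dp16 library lay above the lowest 5xFAD library. The difference of Dp16 from wild-type was -1.18 (SE 0.29, interval -1.79 to -0.58, edgeR adjusted p = 0.399), or 0.44-fold. Leaving out single libraries moved it between -1.42 and -0.84, the smallest without wild-type replicate 1, the highest library for this gene. Among males alone it was -1.83. Counts behind it were 43 to 80 reads in Dp16 and 68 to 193 in wild-type. Nkx2-2 overlaps the antisense transcript Nkx2-2os, which gave 0 to 26 reads in wild-type and 15 to 20 in Dp16, with the 0 in wild-type replicate 1. In 5xFAD the antisense transcript gave 11 to 52 reads, and in 5xFAD-Dp16 9 to 17. The library kit keeps strand, but the strand setting of the counting is not given in the sources used here, so reads of the pair may be split wrongly.

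On the 5xFAD background all 7 members stood higher with the duplication, whatever their copy number, where 49.8% of all genes did. This comparison shares no library with that of Dp16 and wild-type. Olig1 stood above 5xFAD by 0.95 (SE 0.24, interval 0.44 to 1.46), or 1.93-fold, and Olig2 by 1.04 (SE 0.28, interval 0.45 to 1.64), or 2.06-fold. Of the 2-copy members, Sox10 stood higher by 1.00 (SE 0.32), Pdgfra by 0.73 (SE 0.37), Cspg4 by 1.07 (SE 0.56), Gpr17 by 0.70 (SE 0.42) and Nkx2-2 by 0.30 (SE 0.30). Without 5xFAD replicate 3, Pdgfra stood at 0.39, Cspg4 at 0.55 and Gpr17 at 0.41. The median of the 7 was 0.95 against 0.00 over all genes. None passed the edgeR test (adjusted p from 0.155 to 0.547), and 0% of all genes did. At an unadjusted p under 0.05 there were 3, namely Olig1, Olig2 and Sox10, where 23.8% of all genes were under that value. DESeq2 called the same 3 (adjusted p = 0.016, 0.0249 and 0.0421) and gave no adjusted p for Cspg4 and Nkx2-2. Of the 10496 genes to which it gave an adjusted p, DESeq2 called 477 higher and 337 lower.

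The 5xFAD group was not uniform for these genes. Sox10 read 23.5 and 18.4 CPM in the females and 11.7 and 10.005 CPM in the males, against 34.6, 20.8, 27.7 and 24.2 CPM in 5xFAD-Dp16. Wild-type read 18.9, 16.9, 33.7 and 41.2 CPM and Dp16 33.4, 20.4, 27.9 and 18.8 CPM for the same gene. Cspg4 read 4.2 and 4.5 CPM in the 5xFAD females and 0.6 and 2.6 CPM in the males, against 8.5, 4.7, 4.6 and 3.2 CPM in 5xFAD-Dp16. For Olig1, Olig2, Sox10 and Gpr17 the male 5xFAD pair held the lowest 2 values of all 16 libraries, and both libraries read long and GC-rich genes low (length correlations -0.46 and -0.24, GC correlations -0.28 and -0.30). Since every 5xFAD-Dp16 animal is male, the sex term of the model rests on the other 3 genotypes.

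Restricting the comparison to males, or fitting these 2 groups alone, raised the differences and put 6 of 7 members past the threshold, but of all genes they called 2106 higher and 1850 lower, and 2511 higher and 2509 lower, where the full model called 0. With the trends on gene length and GC content removed from each library, an alternative added after the data were seen, Olig1 stood at 0.66, Olig2 at 0.77, Sox10 at 0.58, Cspg4 at 0.42 and Gpr17 at 0.36, all 7 were still above 0, and none passed.

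Averaged over both backgrounds, 8 carriers against 8 non-carriers, Olig1 stood higher with the duplication by 0.68 (SE 0.16, interval 0.33 to 1.02, adjusted p = 0.207 in edgeR), or 1.60-fold. Olig2 stood higher by 0.55 (SE 0.19, interval 0.15 to 0.94, edgeR adjusted p = 0.322), or 1.46-fold. Both intervals exclude 0 and hold 0.58. Sox10 stood at 0.43 (SE 0.22), Gpr17 at 0.42 (SE 0.28), Cspg4 at 0.39 (SE 0.37), Pdgfra at 0.37 (SE 0.25) and Nkx2-2 at -0.44 (SE 0.20). The intervals of 2-copy Sox10 (-0.02 to 0.89), Gpr17 (-0.18 to 1.02), Cspg4 (-0.40 to 1.17) and Pdgfra (-0.16 to 0.91) also hold 0.58, and hold 0. Holding 0.58 thus does not tell 3-copy from 2-copy genes here. Without 5xFAD replicate 3, Pdgfra stood at 0.20, Cspg4 at 0.12 and Gpr17 at 0.27. Cspg4 stood at 0.61 without Dp16 replicate 4, and Nkx2-2 at -0.21 without wild-type replicate 1. In all, 6 of 7 stood above 0, against 52.1% of all genes. None of the 7 passed, where 0.094% of all genes did, and 3 were under an unadjusted p of 0.05 (Olig1, Olig2 and Nkx2-2) against 15% of all genes. Olig1 passed in DESeq2 (adjusted p = 0.0144) and, in edgeR, with the length and GC trends removed (0.53, adjusted p = 0.0389). Over all genes DESeq2 called 67 higher and 35 lower of 16144, and edgeR with both trends removed 45 and 3 of 17019. In that last setting Olig2 stood at 0.40, and Sox10 and Pdgfra at 0.22 each.

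**Figure D2:**
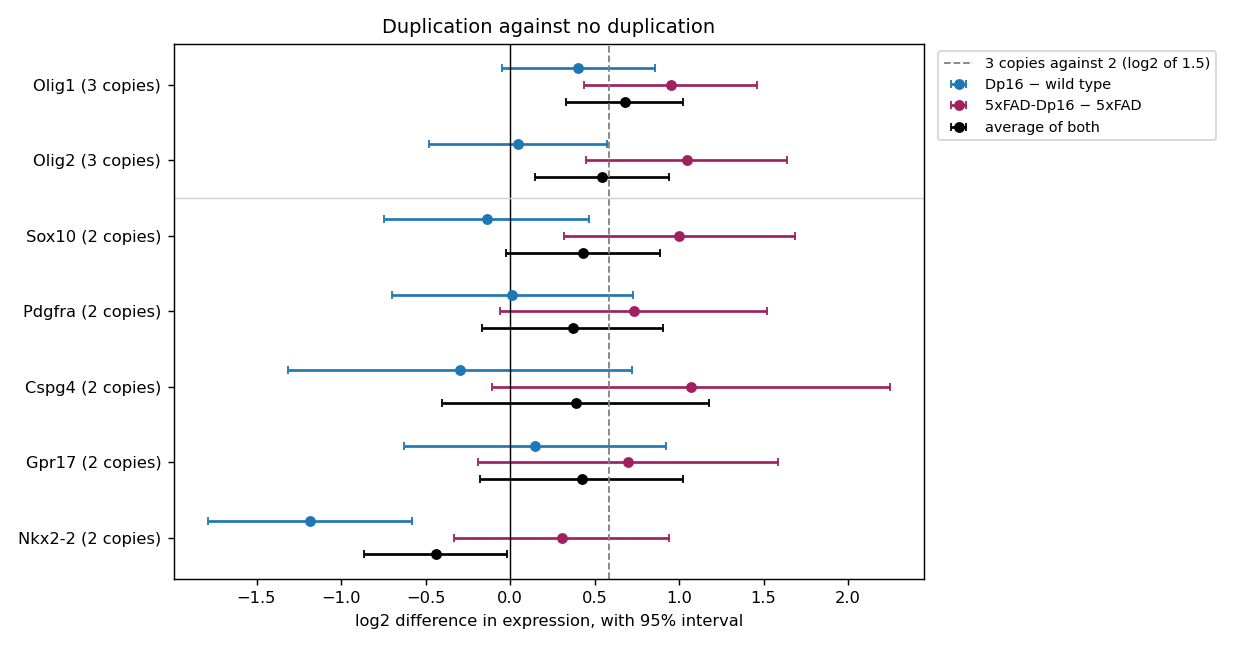
Log2 difference of each gene with the duplication (horizontal axis) in Dp16 against wild-type, in 5xFAD-Dp16 against 5xFAD, and averaged, as points with 95% intervals from the edgeR model of 16 libraries. The dashed line marks 1.5-fold, and the 2-copy genes Sox10, Pdgfra, Cspg4 and Gpr17 lie between -0.30 and 0.15 without the transgenes and between 0.70 and 1.07 with them.

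The segment around the pair gives the scale for an extra copy. Of its 384 genes, 105 were tested, and their median difference was 0.55 between Dp16 and wild-type, 0.51 between 5xFAD-Dp16 and 5xFAD, and 0.51 averaged, with 94, 89 and 101 of them above 0. Between Dp16 and wild-type, 76 of the 105 stood above Olig1 and 93 above Olig2, so Olig2 was among the lowest of the segment there. On the 5xFAD background 26 stood above Olig1 and 21 above Olig2. The interaction, the duplication difference with the transgenes minus that without them, had a segment median of -0.05, and 6 of the 105 stood above the Olig2 value of 1.00.

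Within 0.5 Mb of Olig1 or Olig2 the table holds 47 other genes, of which 20 were tested. Their median was 0.60 between Dp16 and wild-type, with 18 above 0, and 0.43 on the 5xFAD background, with 17 above 0. Averaged over backgrounds, Ifnar1 and Ifnar2, the subunits of the type I interferon receptor, rose by 0.78 and 0.81 (edgeR adjusted p = 0.0032 and 0.0065). Ifngr2, a subunit of the interferon gamma receptor, rose by 0.72 and Tmem50b, which encodes a membrane protein, by 0.58 (edgeR adjusted p = 0.0011 and 0.0032). Between Dp16 and wild-type alone these 4 stood at 0.77, 0.63, 0.62 and 0.62, each above both Olig genes. They are the neighbours that passed in the average, of which this comparison is a part. Among the other neighbours, Son (0.27), Paxbp1 (0.21), Urb1 (-0.27) and A930006K02Rik (-0.35) stood below Olig1 there, and the rest above it.

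**Figure D3:**
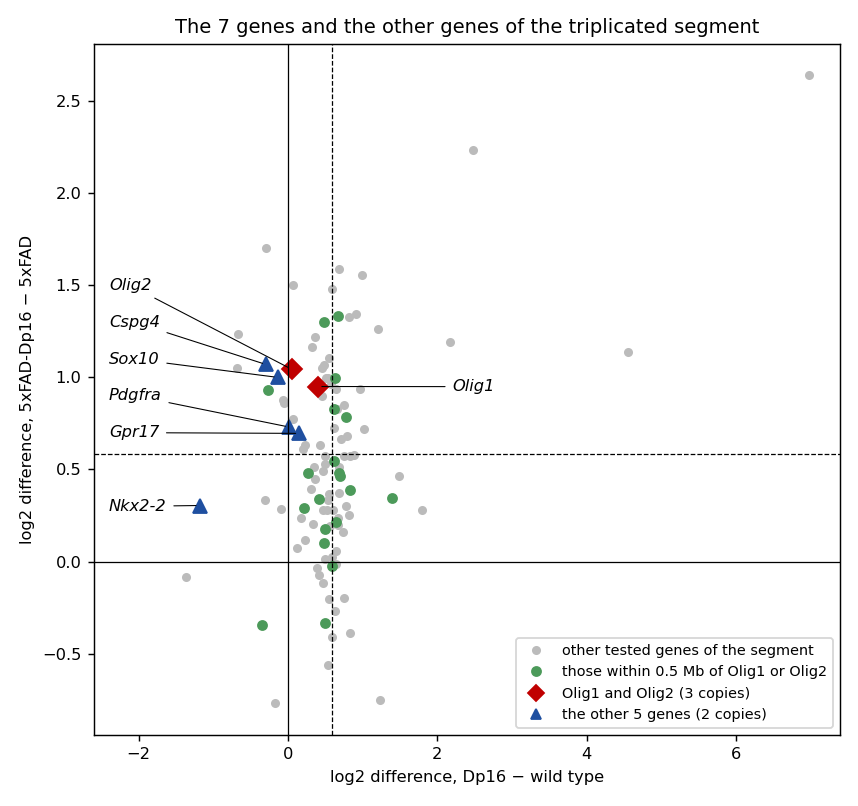
Log2 difference with the duplication on the 5xFAD background (vertical axis) against that without it (horizontal axis) for the 7 genes and the other tested genes of the segment, with solid lines at 0 and dashed lines at 1.5-fold. Most segment genes lie right of 0 near the vertical dashed line (median 0.55), while Olig2 lies near 0 on that axis (0.05) and Nkx2-2 left of it (-1.18).

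A ratio of 2 genes within a library does not depend on scaling between libraries, so each 3-copy gene was divided by each 2-copy member, which gave 20 ratio comparisons over the 2 backgrounds. The log2 ratio of Olig1 to Sox10 was 2.01, 1.97, 1.33 and 1.46 in wild-type replicates 1 to 4 and 2.05, 2.32, 2.13 and 2.17 in Dp16. Every Dp16 library stood above every wild-type library, with a difference of 0.48 (exact permutation test, two-sided, p = 0.0286, adjusted p = 0.143 over 20). On the 5xFAD background the same ratio was 1.93 ± 0.045 (SD, n = 4) in 5xFAD-Dp16 and 1.95 ± 0.22 in 5xFAD, a difference of -0.02 (exact permutation p = 0.971).

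For Olig2 over Sox10 the difference was 0.10 without the transgenes and -0.07 with them, with overlapping groups in both. The ratio of Olig1 to Nkx2-2 separated the groups in both backgrounds, by 1.54 and 0.66 (exact permutation p = 0.0286 each, adjusted p = 0.143), and that of Olig2 to Nkx2-2 did so without the transgenes, by 1.17. Without the transgenes the Nkx2-2 level itself stood at -1.18, against 0.40 for Olig1 and 0.05 for Olig2. Within genotypes Olig1 followed the length trend of the library and Nkx2-2 did not (r = 0.90 and 0.01), so their ratio is not free of that trend. The value 0.0286 is the smallest that 4 against 4 allows, 4 of the 20 ratios reached it, and 0 passed after adjustment. Over the 10 ratios of each background the median difference was 0.30 without the transgenes and 0.04 with them. Olig1 read 3.25 times Olig2 in counts in wild-type (geometric mean), 4.21 times in Dp16, 3.38 times in 5xFAD and 3.51 times in 5xFAD-Dp16.

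**Figure D4:**
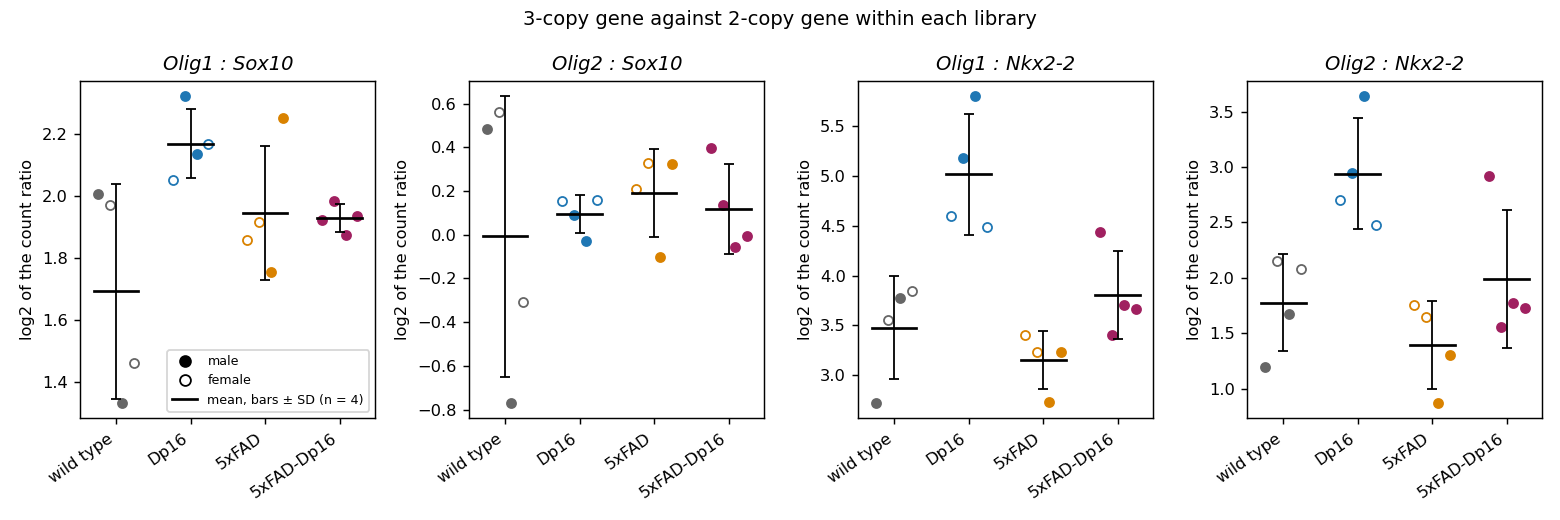
Log2 of the count ratio (vertical axis) of Olig1 or Olig2 to Sox10 and to Nkx2-2 in each library, with the mean ± SD of 4 animals per genotype. The Olig1 to Sox10 ratio is higher in every Dp16 library than in every wild-type library, and has nearly equal means in 5xFAD and 5xFAD-Dp16 (1.95 and 1.93).

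With 2 copies of the segment, all 7 members stood lower in 5xFAD than in wild-type, where 52.1% of all genes stood higher. Sox10 stood at -0.85 (SE 0.29, interval -1.47 to -0.24), Cspg4 at -0.86 (SE 0.49), Olig2 at -0.57 (SE 0.25), Olig1 at -0.53 (SE 0.22), Gpr17 at -0.34 (SE 0.37), Pdgfra at -0.31 (SE 0.34) and Nkx2-2 at -0.28 (SE 0.28). The median was -0.53 against 0.02 over all genes. None passed (edgeR adjusted p from 0.307 to 0.762), where 0.176% of all genes did, and DESeq2 called 0. At an unadjusted p under 0.05 there were 3, Olig1, Olig2 and Sox10, against 10.7% of all genes. With the length and GC trends removed, Sox10 stood at -0.53, Olig2 at -0.36 and Olig1 at -0.27. Pdgfra read 17.1, 8.4, 17.6 and 28.6 CPM in wild-type and 20.6, 14.1, 6.7 and 17.1 CPM in 5xFAD, and its difference was 0.038 without wild-type replicate 4. Without 5xFAD replicate 3, Cspg4 stood at -0.49 and Gpr17 at -0.13.

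With 3 copies of the segment the transgene difference was above 0 for all 7, as for 51.6% of all genes. It shares its libraries with the comparisons above. 5xFAD-Dp16 stood above Dp16 by 0.02 for Olig1 (SE 0.23), 0.43 for Olig2 (SE 0.27), 0.29 for Sox10 (SE 0.31), 0.41 for Pdgfra (SE 0.36), 0.50 for Cspg4 (SE 0.50) and 0.20 for Gpr17 (SE 0.38). The Olig1 value is far within its error, and it was -0.15 among males alone. Without 5xFAD-Dp16 replicate 1, Olig2 stood at 0.15, Sox10 at 0.14 and Cspg4 at 0.17. Nkx2-2 stood higher by 1.20 (SE 0.31, interval 0.54 to 1.87, edgeR adjusted p = 0.75), the 1 member whose groups did not overlap, as in 2.82% of all genes in that direction. None passed in edgeR, where 0.0176% of all genes did, or in DESeq2, and Nkx2-2 was the only member under an unadjusted p of 0.05, against 5.29% of all genes.

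Averaged over both copy numbers, the transgene difference was between -0.28 (Sox10) and 0.46 (Nkx2-2, SE 0.20), above 0 for 2 of 7 and for 50.2% of all genes. None of the 7 passed, where 0.188% of all genes did, DESeq2 called 0, and 1 was under an unadjusted p of 0.05 against 7.53% of all genes. 5xFAD-Dp16 against wild-type gave differences from 0.02 (Nkx2-2) to 0.47 (Olig2, SE 0.27), all above 0 as were 52.4% of all genes, with 0 past the threshold where 0.047% of all genes were, 0 in DESeq2, and 0 under an unadjusted p of 0.05 against 10.4% of all genes.

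The interaction was above 0 for all 7 members, and for 49.2% of all genes: 1.49 for Nkx2-2 (SE 0.43), 1.37 for Cspg4 (SE 0.72), 1.14 for Sox10 (SE 0.43), 1.00 for Olig2 (SE 0.37), 0.72 for Pdgfra (SE 0.50), and 0.55 for each of Olig1 (SE 0.32) and Gpr17 (SE 0.54). Without 5xFAD replicate 3, Cspg4 stood at 0.87, Olig1 at 0.36 and Gpr17 at 0.27. Pdgfra stood at 0.26 without wild-type replicate 4, and Gpr17 at 1.098 without Dp16 replicate 3. Over the other processing settings, removed trends among them, the interaction ran from 0.23 to 0.76 for Olig1 and 0.66 to 1.27 for Olig2. In those settings it ran from 0.72 to 1.45 for Sox10, 0.39 to 0.82 for Pdgfra and 0.73 to 1.76 for Cspg4. For Gpr17 it ran from 0.27 to 0.83 and for Nkx2-2 from 1.25 to 2.24. The median of the 7 was 1.00 against -0.01 over all genes. None passed in edgeR (adjusted p from 0.522 to 0.656), where 0% of all genes did, and DESeq2 called 0 of the 7. Nkx2-2, Sox10 and Olig2 were under an unadjusted p of 0.05, against 9.35% of all genes. A difference between the backgrounds was thus not shown for any single member.

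Within genotypes, 6 of the 7 genes varied together from animal to animal. After the genotype mean was removed, the 15 pairs among Olig1, Olig2, Sox10, Pdgfra, Cspg4 and Gpr17 had Pearson correlations from 0.60 to 0.92 over 16 libraries, each with an adjusted permutation p of 0.035 or less over the 21 pairs. Olig1 and Sox10 were closest (r = 0.92, Spearman rho = 0.91, adjusted permutation p = 0.001), and Olig1 and Olig2 gave r = 0.90 (rho = 0.79, adjusted permutation p = 0.0025). Leaving out the 2 libraries farthest from the median, the 15 values ran from 0.54 to 0.93. By rank 1 of the 15, Olig2 with Pdgfra, missed the threshold (rho = 0.57, adjusted permutation p = 0.066). The 6 pairs with Nkx2-2 gave r from 0.16 to 0.36, none past the threshold (smallest adjusted permutation p = 0.21). Such correlations were not particular to these genes. Of 11754 genes with a mean log2 CPM of 2 or more, 2632 had a higher r with Olig2 than Pdgfra had.

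The shared movement ran along the trend of gene length over the whole library. Against that trend Olig1 gave r = 0.90 (rho = 0.94, 0.88 without the 2 farthest libraries) and Olig2 r = 0.72 (rho = 0.69, 0.66 without them). Against the GC trend the values were 0.84 and 0.75. Nkx2-2 gave 0.01 and 0.15. The members' own lengths did not follow this order. Olig1 was the shortest of the 7 at 2162 bases, and Nkx2-2 had 2519. Pdgfra, the longest at 8767 bases, gave r = 0.82 against the length trend. With both trends removed, the 15 pairs kept correlations from 0.33 to 0.81, highest for Olig1 with Olig2 at 0.81. The members share library, depth and these trends, and the part of the trends in any 1 correlation beyond these values was not tested.

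**Figure D5:**
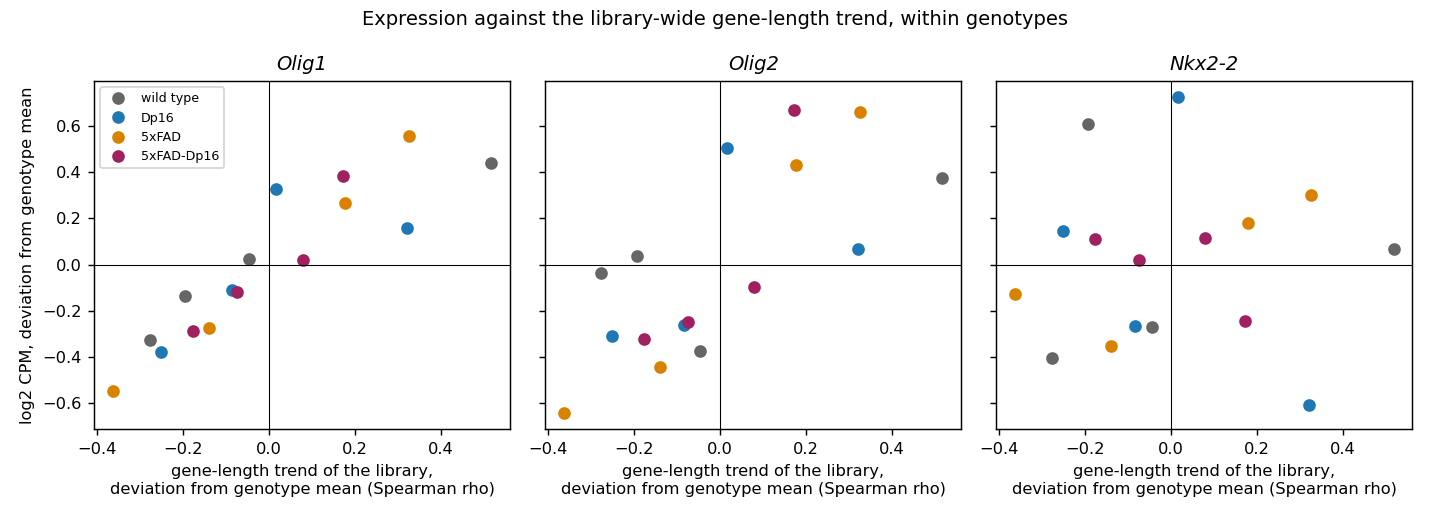
Log2 CPM of Olig1, Olig2 and Nkx2-2 (vertical axis) against the gene-length trend of the library (Spearman rho, horizontal axis), both as deviations from the genotype mean, for 16 libraries. Olig1 and Olig2 rise along the trend (r = 0.90 and 0.72) and Nkx2-2 does not (r = 0.01).

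The genes whose levels moved most like Olig1 within genotypes, of 11754 genes whose mean log2 CPM was 2 or more, were Desi1, Hdac5, Mboat7, Slc6a8 and Prrt1, with r from 0.96 to 0.97 over 16 libraries. None is on any of the marker lists, and 476 genes had a higher r with Olig1 than Olig2 had. For Sox10, Cspg4, Pdgfra and Gpr17 that number was 233, 870, 1663 and 1945. Most like Olig2 were Rnf126, Apln, Opa3, Bscl2 and Carmil3, with r from 0.91 to 0.93, and only 12 genes stood closer to Olig2 than Olig1 did. Closer to Olig2 than Gpr17, Cspg4, Sox10 and Pdgfra stood 764, 979, 1122 and 2632 genes. With the trends removed, Desi1 stayed among the 5 most like Olig1 (r = 0.93), beside Rasgrp3, Kazn, Pitpnc1 and Ncstn, while Hdac5 dropped to r = 0.27. For Olig2, Apln and Bscl2 stayed (r = 0.87 and 0.86), beside Car2, Ccp110 and Tmem63a.

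Other markers of the same cell were read beside the members. Of 16 further precursor markers, 14 stood above 0 with the duplication averaged over backgrounds, with a median of 0.19 against 0.01 over all genes. Cacng4, a subunit associated with calcium channels and AMPA receptors, stood highest among those named at 0.67 (SE 0.26), then Xylt1, a xylosyltransferase that starts proteoglycan chains, at 0.54 (SE 0.26) and Tnr, a matrix glycoprotein, at 0.52 (SE 0.29). Their median was 0.12 between Dp16 and wild-type and 0.28 on the 5xFAD background. None of the 16 passed in any comparison. Their summed level ranged from 190 to 345 CPM in wild-type, 209 to 329 in Dp16, 170 to 303 in 5xFAD and 230 to 362 in 5xFAD-Dp16.

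Of 20 genes of signals that act on precursors, 18 were above 0 with the duplication on the 5xFAD background, with a median of 0.62, and 12 of 20 were above 0 between Dp16 and wild-type, with a median of 0.06. Between 5xFAD and wild-type, 15 of the 20 stood below 0, with a median of -0.22. On the 5xFAD background Fgfr1, a receptor for fibroblast growth factors, stood at 1.19 (SE 0.45) with groups that did not overlap, as in 5.59% of all genes in that direction, and Adgrg1, an adhesion receptor of precursors, at 0.96 (SE 0.38). Smo, the signal transducer of the Hedgehog pathway, stood at 0.46 with the transgenes and 0.34 without, and Shh, its ligand's gene, at 0.75 and 0.74. None of the 20 passed in any comparison. Igf1 stood higher in 5xFAD than in wild-type by 0.93 (SE 0.27, edgeR adjusted p = 0.237).

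Of 23 other transcriptional regulators of the lineage that were tested, 10 stood above 0 averaged over backgrounds, with a median of -0.03. Sox4, Hdac2 and Nkx6-2, named for their small p in this difference, all lay below 0, at -0.25, -0.18 and -0.40. Sox5 was picked by the same rule, but its value is not given here. The named regulators thus do not show the direction of the list. Division genes, of which 8 of 10 were tested, had a median of -0.45, with Pcna, the sliding clamp of DNA replication, at -0.44 (SE 0.15) and Birc5, of the chromosomal passenger complex, at -1.07 (SE 0.42). Birc5 read 0.29 to 1.98 CPM and Pcna 55.1 to 164 CPM over the 16 libraries, and Mki67, Ccnb1, Bub1 and Aurkb had 0 reads in at least 3 of them. None of either list passed.

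Further along the lineage, genes of committed and newly formed oligodendrocytes had a median of 0.12 averaged over backgrounds, with 8 of 12 above 0. Enpp6, an early marker of newly formed cells, stood at -0.35 (SE 0.14) and Itpr2 at 0.48 (SE 0.25). Of 18 genes of mature oligodendrocytes, 8 stood above 0, with a median of -0.01. Mag, a myelin adhesion protein, stood at -0.003 (SE 0.08) and Cnp at 0.05 (SE 0.10). By background, Myrf, the regulator of myelin gene transcription, stood at 1.25 (SE 0.37) with the transgenes and -0.14 without them. Averaged over both backgrounds Myrf thus stood above 0. The averaged values of Opalin, Ermn and Gjb1 were below 0, at -0.41, -0.38 and -0.31.

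For the transgenes the mature list lay to 1 side. All 18 stood below 0 averaged over both copy numbers, with a median of -0.24, where 50.2% of all genes stood above 0. Mog, a glycoprotein of the outer myelin sheath, stood lowest in p at -0.47 (SE 0.09, edgeR adjusted p = 0.0541), then Trf, the iron carrier transferrin, at -0.39 (SE 0.10), Cnp at -0.34 and Mag at -0.30. None passed. With the length and GC trends removed 1 of the 18 stood above 0 and the median was -0.22, and among males alone 4 stood above 0. The summed level of the list was 7587 to 7897 CPM in 5xFAD-Dp16, below all wild-type and Dp16 libraries (9172 to 10908 and 8498 to 10920), and 7341 to 9267 CPM in 5xFAD.

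Markers of other cells that could share these genes were read beside them. The 10 pericyte and smooth muscle markers, cells that also express Cspg4, summed to 321 to 383 CPM in wild-type, 319 to 425 in Dp16, 284 to 359 in 5xFAD and 285 to 347 in 5xFAD-Dp16, and Pdgfrb stood at 0.93 (SE 0.45) on the 5xFAD background. The 10 fibroblast and meningeal markers, cells that also express Pdgfra, summed to between 23.3 and 57.2 CPM in all libraries but one, which was a 5xFAD-Dp16 library at 82.5 CPM, with Col1a2 at 1.38 (SE 0.68) on that background. On the 5xFAD background the pericyte list had a median of 0.55, with 6 of 10 above 0, and the fibroblast list 0.61, with 9 of 10 above 0. Between 5xFAD and wild-type they had medians of -0.44 and -0.78, with 8 of 10 below 0 in each. Of these 2 lists, Lum, Igf2, Anpep and Myh11 had 0 reads in 1 or 2 libraries. Choroid plexus and ependymal markers summed to 23.3 to 38.0 CPM in wild-type and reached 122 CPM in a Dp16 library and 721 CPM in a 5xFAD-Dp16 library. Excitatory neuron markers had a median of 0.63 on the 5xFAD background, with 9 of 10 above 0, and a summed level of 1256 to 2482 CPM in 5xFAD against 2590 to 3992 in 5xFAD-Dp16, so that they moved with the members there. On that background endothelial markers had a median of 0.42, inhibitory neuron markers 0.15, striatal markers 0.15, astrocyte markers 0.02 and microglial markers -0.46, with 0 of 10 called in each list. Between 5xFAD and wild-type, 3 of 10 microglial markers rose, among them Trem2 by 1.59 (SE 0.17, edgeR adjusted p = 0.00027), and all 10 endothelial markers stood below 0, with a median of -0.65. The part of these cells in the members' differences was not tested.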

How the data were processed

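Cortex RNA of 16 mice (4 genotypes, 4 animals each) was analysed from the table of gene counts that the authors deposited, with 12483286 to 20385010 reads per library. The deposited RPKM table was used only to compare levels between genes; 100% of its checked values matched the counts and gene lengths within 0.1%. The submitters' processing notes name bcl2fastq, FastQC 0.11.5, HISAT2 2.1.0, SAMtools 1.5, HTSeq 0.6.1 and the GRCm38 build, and per the labels' protocols the kit keeps strand. The strand setting of the counting is not given in the sources used here. Coordinates came from a Gencode annotation of the same build, which matched 55144 of 55385 genes by ID, and promoters from RefSeq.

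Genes were kept by edgeR's filterByExpr with a minimum count of 10 (17019 of 55385 kept), scaled by TMM and fitted over all 16 libraries with genotype and sex terms in edgeR 4.0.16 (limma 3.58.1, R 4.3.3), by the quasi-likelihood test, with p-values adjusted over all tested genes by the Benjamini-Hochberg method and a threshold of 0.05. Intervals are 95%. DESeq2 1.42.0 was an alternative. The edgeR fit was also run on simulated data with changes of known size, and the share it recovered is not given here. Log2 CPM used a prior count of 2. Within-library ratios (exact permutation) and correlations (100000 permutations) used Python 3.11.15 and SciPy 1.17.1. Length and GC trends were lowess fits per library with a span of 0.5; removing the GC trend, alone or with the length trend, was chosen after seeing the data. Low genes are less precise: Cspg4 had 9 to 178 reads and Nkx2-2 43 to 193.

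The members and gene lists were chosen with earlier results of these data known. Beyond the 7 members, App, Thy1, Olig3 and the genes within 0.5 Mb of Olig1 or Olig2, the 5 genes most like each Olig gene were named. Others were taken from the 4 of each list with the smallest p in the averaged duplication or transgene difference. Not all of those are shown: Neu4, Sox5 and Ust, for example, are left out. The genes named from a list thus need not show its direction. The replicate numbers did not pair libraries of different genotypes.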

Additional observations from a re-analysis of the deposited data

Results flagged for a closer look

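Each group of 4 libraries was checked for a value far from the other 3, by the gap to its nearest neighbour as a share of the range of the group (Dixon's 95% critical value). Chance marks about 1 in 20 groups, and 4 of 72 were marked. Olig2 read 45.6 CPM in 5xFAD-Dp16 replicate 1, where the other 3 read 22.8, 24.06 and 26.7 CPM, and without that library the difference from 5xFAD was 0.77. The log2 ratio of Olig2 to Nkx2-2 was 2.92 in the same library, against 1.55 to 1.78 in the others. The log2 ratio of Olig2 to Gpr17 was 0.43 in 5xFAD replicate 1, where the others lay at 0.64 or above, and 1.27 in wild-type replicate 2, where the others lay at 0.71 or below. The causes were not tested. The length correlation of 5xFAD-Dp16 replicate 1, 0.45, was the highest of the 16.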

How the results depend on the processing

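No member passed in edgeR with the full model, and the count changed with the setting; the cause was not tested. For 5xFAD-Dp16 against 5xFAD, 4 members passed with no filter on low counts, 6 with only the groups compared, 6 with only males and 3 in DESeq2; Olig1 stood at 0.97, 1.22, 1.24 and 0.95 there and Olig2 at 1.07, 1.34, 1.36 and 1.04. Over all genes, in the same order, 1352 were called higher and 863 lower of 29145, 2511 and 2509 of 16014, 2106 and 1850 of 17567, and 477 and 337 of 10496. For the average over both backgrounds, 2 passed with no filter, 2 with only males, 1 with both trends removed and 1 in DESeq2; Olig1 stood at 0.69, 0.86, 0.53 and 0.67, and Olig2 passed at 0.56 with no filter and 0.72 with only males. In these settings 731 of all genes were called higher and 366 lower of 29145, 1454 and 1034 of 17567, 45 and 3 of 17019, and 67 and 35 of 16144. DESeq2 called 1 member between Dp16 and wild-type, and with no filter Sox10 was the 1 called between 5xFAD and wild-type and the 1 in the interaction. All genes gave 38 higher and 19 lower of 28057, 100 and 135 of 29145, and 259 and 87 of 29145 there. Fitting only the groups compared gives no value for averages or the interaction. Signs turned for small values. For 5xFAD-Dp16 against Dp16, Olig1 was -0.14 with no sex term, -0.15 with only the groups compared and with only males, -0.048 with the GC trend removed and -0.014 with both trends removed, and Gpr17 was -0.14 with only the groups compared and with only males. For the averaged transgenes, Olig2 was 0.011 with both trends removed, and Pdgfra -0.14 with only males, -0.054 with the length trend removed and -0.068 with both. For 5xFAD-Dp16 against wild-type, Sox10 was -0.047 with no sex term, Cspg4 -0.077 with the length trend removed and -0.17 with both, and Nkx2-2 -0.11 with no sex term, -0.30 with only the groups compared and with only males, and -0.015 with the GC trend removed. Leaving out 1 library at a time put no member past the threshold. Between Dp16 and wild-type the values ran from -0.085 to 0.23 for Olig2, -0.36 to 0.10 for Sox10, -0.23 to 0.34 for Pdgfra, -0.56 to 0.0099 for Cspg4, -0.25 to 0.36 for Gpr17 and -0.15 to 0.29 for the log2 ratio of Olig2 to Sox10. They ran from -0.58 to 0.038 for Pdgfra and -0.50 to 0.068 for Nkx2-2 between 5xFAD and wild-type, from -0.13 to 0.17 for Olig1 and -0.0056 to 0.71 for Gpr17 between 5xFAD-Dp16 and Dp16, and from -0.079 to 0.087 for the log2 ratio of Olig1 to Sox10 on the 5xFAD background. For the averaged transgenes they ran from -0.21 to 0.0074 for Olig2, -0.078 to 0.17 for Pdgfra and -0.24 to 0.16 for Gpr17, and for 5xFAD-Dp16 against wild-type from -0.0020 to 0.45 for Sox10, -0.12 to 0.40 for Cspg4 and -0.10 to 0.49 for Nkx2-2. With the replicate block, 0 members passed in any comparison. The numbers do not pair the libraries: same-numbered libraries correlated at -0.37 to 0.32 over 24 pairs, 5 of them above 0.1, and 1 of 16 libraries was closest to its own number.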
